A study of Homo sapiens with 8 samples.

Results

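The AXL and MET receptor families were examined in naive NCI-H3122 lung adenocarcinoma cells and in 3 derived lines with resistance to an ALK inhibitor. The 7 genes were the TAM receptors AXL, TYRO3 and MERTK, their ligand GAS6, the MET family receptors MET and MST1R, and the MET ligand HGF. They were chosen by name, through the Ensembl identifier of each gene in GENCODE release 44, and all 7 were found among the 43869 genes of the table. They were paired with 110 of 126470 H3K27ac peaks, a peak being paired with every gene within 20 kb.

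NCI-H3122 carries an EML4-ALK fusion and grows as adherent epithelial cells. The lines erCriz0, erAlec0 and erLor0 had been derived from it by stepwise rising doses of crizotinib, alectinib and lorlatinib, and were labelled with 0.5 µM, 2 µM and 2 µM of that inhibitor, while all 4 cultures, naive cells included, carried the same label of 0.1% DMSO. RNA was taken from resistant cells after a period without drug. The study's methods state no such period for the cells used for H3K27ac, so whether these were in drug is not known. Each line had 1 RNA library and 1 H3K27ac library in the table, so no value has a replicate check and no test between lines was run. The series also holds samples labelled erCriz1 and erLor1, further crizotinib- and lorlatinib-resistant lines, which were not analysed here. Rlog is a regularized log2 of the read count. A change is the difference in rlog from naive cells, and a gene or peak was called up at a change of 1 or more and down at −1 or less. A gene was taken as expressed when its rlog reached 4.64, the log2 of 25, in at least 1 library, which is a limit on rlog and not on reads.

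AXL, TYRO3 and MERTK are receptor tyrosine kinases that bind GAS6 or protein S bridged to phosphatidylserine on membranes, and AXL is known for its rise in lung cancer cells that resist kinase inhibitors. MET is the receptor of HGF, which is secreted as an inactive precursor and cut by serine proteases, and MST1R (RON) is the receptor of the related ligand MST1. MET signals through docking proteins such as GAB1 to the MAPK, PI3K and STAT3 pathways, and crizotinib blocks MET as well as ALK. H3K27ac is an acetyl mark on histone H3 that accompanies active promoters and enhancers.

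The promoters of the receptors are shown first, since the marks described later lie over them or miss them. Sequences are the RefSeq windows of GRCh38 (hg38) from 250 bases before to 50 bases after an annotated start, 300 bases each, on the strand of the gene. Capitals mark matches, on either strand, to the GC box (GGGCGG), the E-box (CACGTG), the ETS motif (CCGGAAG), the TEAD motif (GGAATG) and the AP-1 motif (TGANTCA). AXL has 2 such windows, at chr19:41218973-41219272 and chr19:41226505-41226804 on the plus strand.
AXL promoter 1: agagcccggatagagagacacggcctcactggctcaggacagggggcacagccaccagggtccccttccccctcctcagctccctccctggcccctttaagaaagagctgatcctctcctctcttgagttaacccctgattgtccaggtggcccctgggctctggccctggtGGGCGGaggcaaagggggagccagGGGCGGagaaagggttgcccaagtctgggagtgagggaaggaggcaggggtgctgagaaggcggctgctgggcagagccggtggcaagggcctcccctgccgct
AXL promoter 2: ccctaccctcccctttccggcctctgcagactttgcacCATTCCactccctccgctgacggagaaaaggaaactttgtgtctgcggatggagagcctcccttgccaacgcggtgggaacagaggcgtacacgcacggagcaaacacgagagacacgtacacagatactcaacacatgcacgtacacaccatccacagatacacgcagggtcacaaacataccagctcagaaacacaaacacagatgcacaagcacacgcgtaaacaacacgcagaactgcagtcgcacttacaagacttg
The first AXL window was 66.0% G and C with 2 GC boxes, lay over the main start of the gene, and was 4121 bases from the nearest paired peak. The second, inside the gene, had 53.7% G and C and 1 TEAD match, and lay wholly within a peak. The windows of MERTK at chr2:111898357-111898656, MET at chr7:116671946-116672245, both on the plus strand, and MST1R at chr3:49903824-49904123 on the minus strand each lay wholly within a peak.
MERTK promoter 1: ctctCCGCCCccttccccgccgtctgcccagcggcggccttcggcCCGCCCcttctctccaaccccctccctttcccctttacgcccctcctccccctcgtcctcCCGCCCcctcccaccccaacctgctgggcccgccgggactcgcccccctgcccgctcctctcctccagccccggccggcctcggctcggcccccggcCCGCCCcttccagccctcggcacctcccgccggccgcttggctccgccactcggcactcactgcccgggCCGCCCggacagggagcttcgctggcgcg
MET promoter 1: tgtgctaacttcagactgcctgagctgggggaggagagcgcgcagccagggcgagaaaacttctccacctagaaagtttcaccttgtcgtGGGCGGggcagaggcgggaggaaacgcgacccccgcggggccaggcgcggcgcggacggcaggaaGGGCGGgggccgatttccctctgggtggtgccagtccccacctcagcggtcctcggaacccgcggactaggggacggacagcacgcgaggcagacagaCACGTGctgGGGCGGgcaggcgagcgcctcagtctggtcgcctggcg
MST1R promoter 1: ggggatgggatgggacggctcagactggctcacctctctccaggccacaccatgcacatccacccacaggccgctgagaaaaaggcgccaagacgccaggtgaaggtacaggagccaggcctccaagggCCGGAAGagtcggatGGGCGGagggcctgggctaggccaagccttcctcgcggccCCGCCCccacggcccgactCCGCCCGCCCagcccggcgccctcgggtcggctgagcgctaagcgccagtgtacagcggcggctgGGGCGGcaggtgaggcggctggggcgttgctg
The first TYRO3 window, chr15:41558962-41559261 on the plus strand, had its last 44 bases within a peak.
TYRO3 promoter 1: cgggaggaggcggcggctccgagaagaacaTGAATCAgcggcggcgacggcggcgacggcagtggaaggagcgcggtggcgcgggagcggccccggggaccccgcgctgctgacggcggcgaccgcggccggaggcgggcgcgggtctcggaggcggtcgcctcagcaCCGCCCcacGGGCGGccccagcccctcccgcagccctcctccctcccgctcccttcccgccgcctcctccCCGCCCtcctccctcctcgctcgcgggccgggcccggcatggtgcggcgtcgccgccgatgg
MERTK had 5 GC boxes, MET 3 and MST1R 5, of which 2 overlapped, while MET also held 1 E-box and MST1R 1 ETS match. The TYRO3 window had 80.3% G and C, 3 GC boxes and 1 AP-1 match. Of 35116 RefSeq promoter windows, 45.0% held a GC box, 7.26% the E-box, 10.3% the ETS motif, 14.0% the TEAD motif and 7.71% the AP-1 motif. A match is a run of letters and not a measured site.

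Among the receptors, AXL RNA was the one that differed from naive cells by a similar amount in each resistant line. AXL (ENSG00000167601.12, chr19:41219223-41261766, plus strand) had an rlog of 4.62 in naive cells, then of 5.68, 5.56 and 5.60 in erCriz0, erAlec0 and erLor0. All 3 resistant libraries lay above the naive one and within 0.12 of each other. The changes were 1.06, 0.94 and 0.98, or 2.08-, 1.92- and 1.97-fold, so that AXL was called up in erCriz0 and lay just under the limit in the other lines. Of 12701 expressed genes, 2.65%, 2.46% and 1.1% were called up in erCriz0, erAlec0 and erLor0 and 1.65%, 2.07% and 0.74% down, where the 7 genes had 1, 0 and 0 up and 0 down. No member was called in all 3 lines, beside 0.157% of expressed genes up and 0.244% down in all 3. The naive value lay just below the limit for an expressed gene, so that AXL passed it only through the resistant lines, and at such levels rlog pulls differences toward 0. In bulk libraries, more cells with AXL and more AXL per cell cannot be told apart. An antisense gene, ENSG00000269652, overlaps AXL, and no source used here says whether RNA was counted by strand, a limit that holds for each overlap named below.

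The other TAM receptors differed less from naive cells. MERTK (ENSG00000153208.17, chr2:111898607-112029561, plus strand), the receptor of phagocytosis of dying cells, had an rlog of 7.95 in naive cells, then of 7.92, 8.46 and 8.74 in erCriz0, erAlec0 and erLor0. It was level with naive cells in erCriz0 and higher by 0.51 in erAlec0 and 0.79 in erLor0, and its erLor0 and erCriz0 libraries were 0.82 apart. The pseudogenes RTRAFP1 and SLC30A6P1 overlap it on the other strand and RN7SL297P on the same strand. TYRO3 (ENSG00000092445.12, chr15:41557675-41583589, plus strand), which is best known from the nervous system, had an rlog of 7.85, 7.50, 7.83 and 7.96 in naive, erCriz0, erAlec0 and erLor0 cells, with changes of −0.35, −0.02 and 0.11. Its reads can be shared with the near-identical pseudogene TYRO3P, which makes its level uncertain. Neither gene reached the limit of a call in any line.

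MET was the most abundant of the 7 RNAs. MET (ENSG00000105976.15, chr7:116672196-116798386, plus strand) had an rlog of 11.91 in naive cells, then of 12.63, 12.02 and 11.87 in erCriz0, erAlec0 and erLor0. Only the erCriz0 library stood apart, with a change of 0.72, or 1.65-fold, beside 0.11 and −0.04. The 17 other expressed genes within 5 Mb of MET had a median RNA change of 0.41 in erCriz0, with 15 of them higher than in naive cells, beside 0.30 and −0.01 in the other lines. The highest of these neighbours in erCriz0 was CAV1, caveolin 1, with a change of 0.99. Less the neighbours' median, MET was 0.31 higher in erCriz0 and at −0.19 in erAlec0. The part of the neighbourhood in the MET value was not tested further.

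MST1R was higher in erAlec0 and erLor0 but lower in erCriz0. MST1R (ENSG00000164078.13, chr3:49887002-49903873, minus strand) had an rlog of 8.34 in naive cells, then of 8.01, 9.0 and 8.71 in erCriz0, erAlec0 and erLor0, with changes of −0.33, 0.66 and 0.37. The erAlec0 and erCriz0 libraries were 0.99 apart, the widest gap between resistant lines among the 7 genes. It was not called in any line. ENSG00000230698 and ENSG00000228008 overlap it on the other strand.

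Neither ligand was expressed. GAS6 (ENSG00000183087.15, chr13:113820549-113864076, minus strand) had rlog values of 3.94, 3.90, 3.97 and 3.94 in naive, erCriz0, erAlec0 and erLor0 cells, all under the limit of 4.64, and GAS6-AS1 overlaps it on the other strand. HGF (ENSG00000019991.18, chr7:81699010-81770438, minus strand) lay between −0.86 and −0.81 in the 4 libraries. MST1, the ligand of MST1R, was at 3.23 in naive cells and also stayed under the limit. PROS1, which encodes protein S, was the expressed TAM ligand, with an rlog of 5.16 in naive cells and changes of 0.68, 0.08 and 0.59 in erCriz0, erAlec0 and erLor0.

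**Figure D1:**
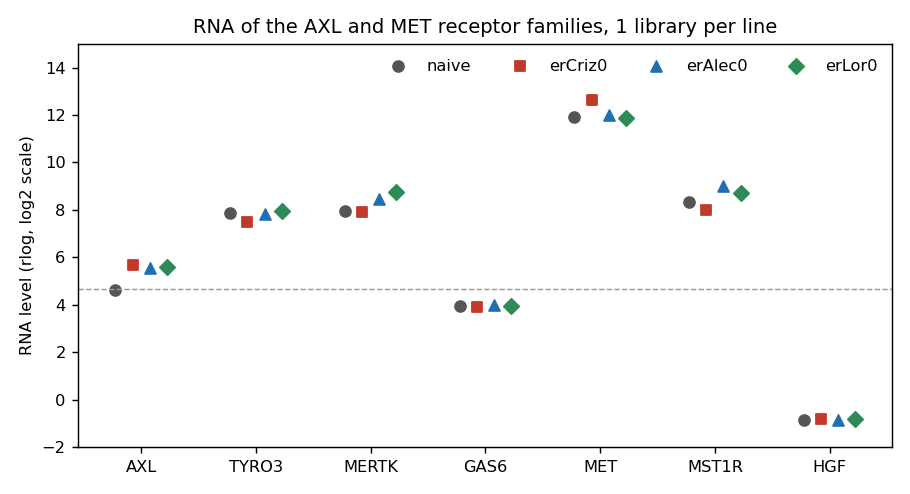
RNA level of each gene (rlog, log2 scale, not divided by gene length) in the 4 libraries, 1 point per library, with a dashed line at the limit for an expressed gene, 4.64. The 3 resistant AXL points lie above the naive point, the erCriz0 point of MET stands above the others, and GAS6 and HGF lie below the line in every library.

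On a scale per kb of exon (rlog minus log2 of the exonic length in kb), levels of different genes can be ordered. In naive cells the order of levels was MET 9.05, MST1R 5.95, MERTK 5.90, TYRO3 4.42, AXL 2.26, GAS6 1.35 and HGF −4.15. MET and HGF kept the first and last place in each library. AXL stayed below TYRO3 in the resistant lines, at 3.32, 3.20 and 3.24. MST1R and MERTK, 0.05 apart in naive cells, exchanged places in erCriz0, where MERTK was 5.87 and MST1R 5.62, and in erLor0, where they were 6.69 and 6.32. With 1 library per line the spread of these levels is unknown, and neighbours this close cannot be put in order.

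Set among 33 expressed receptor tyrosine kinases, AXL had the rank 3, 4 and 2 from the highest change in erCriz0, erAlec0 and erLor0. AXL was in this set through its resistant libraries alone, its naive value being under the limit, so its rank is a description. MET ranked 5, 18 and 28 of 33, MERTK 16, 10 and 3, MST1R 20, 7 and 17, and TYRO3 23, 26 and 23. Of the 33, 3, 3 and 1 were called up in these lines and 2, 1 and 1 down. Over all expressed genes, 2.65%, 2.46% and 1.1% were called up and 1.65%, 2.07% and 0.74% down. ALK itself, the fused kinase of these cells, had changes of 2.47, 1.40 and −0.08. The ephrin receptor EPHA2 had changes of 0.37, 1.5 and 0.74, EPHA4 0.39, 1.37 and 1.13, and the Wnt5a receptor ROR1 −1.01, −1.49 and −1.34. The median change of the 33 was −0.05, 0.14 and 0.37, beside −0.02, 0.00 and −0.00 over all expressed genes.

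**Figure D2:**
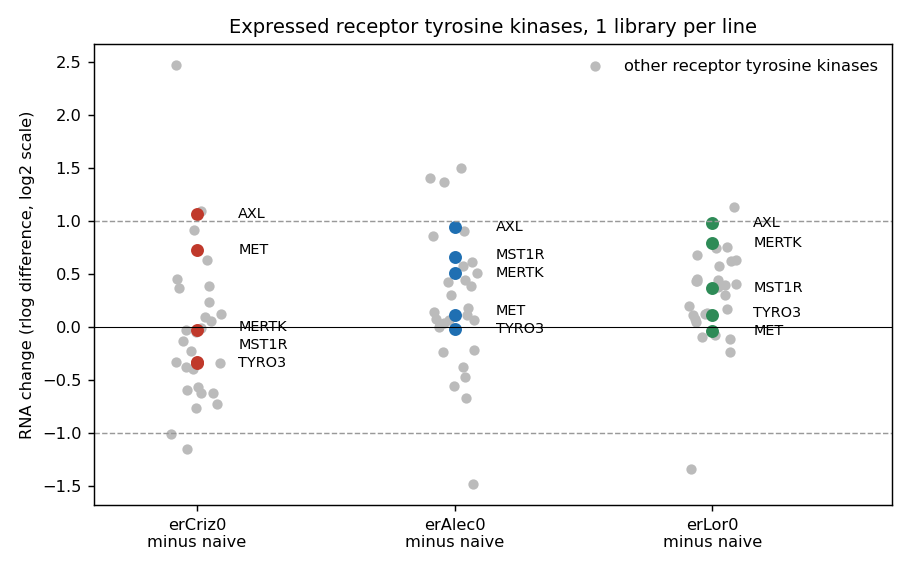
RNA change from naive cells (rlog difference, log2 scale) of the 33 expressed receptor tyrosine kinases in each resistant line, with the 5 expressed members in colour and the others in grey, spread sideways at random for legibility. AXL lies near the upper dashed line, a change of 1, in each line, while MET and MERTK change places between erCriz0 and erLor0.

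Genes that act with these receptors were taken from lists by role. The counts of each list stand beside the shares over all expressed genes in erCriz0, erAlec0 and erLor0. These shares were 2.65%, 2.46% and 1.1% up and 1.65%, 2.07% and 0.74% down. The lists are short, and their counts were not tested against these shares. Of 12 genes for ligands and their processing, 7 were expressed, with 1, 0 and 1 called up in erCriz0, erAlec0 and erLor0 and 0 called down. TMPRSS2, a membrane serine protease able to cut the HGF precursor, had changes of 1.24, 0.62 and 0.21, and PLAU, the urokinase protease, 0.14, 0.90 and 1.13. The protease inhibitor SPINT1 had changes of −0.29, 0.59 and 0.34, and the protease ST14, matriptase, −0.48, −0.15 and −0.07. The list's median change was −0.01, 0.32 and 0.22.

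Of 10 co-receptors and partners, 9 were expressed, and 2, 1 and 1 were called up. CD44, whose v6 isoform presents HGF to MET, had rlog values of 10.25 in naive cells and of 11.57, 10.88 and 11.76 in erCriz0, erAlec0 and erLor0. It was higher in all 3 resistant libraries and was called up in erCriz0 and erLor0, with changes of 1.32, 0.63 and 1.51. EGFR, a receptor that can pair with both AXL and MET, had changes of 1.09, 0.85 and 0.68. ITGB4, an integrin that binds MET, had changes of −0.17, 1.01 and 0.60. The list's median change was −0.05, 0.42 and 0.31.

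Of 21 adaptors and effectors, 20 were expressed, 0 were called up in any line, and 2, 1 and 0 were called down. The kinase SRC had changes of −1.14, −0.69 and −0.32, the tensin TNS2 −1.06, 0.14 and −0.47, and PIK3R1, the regulatory subunit of PI3K, 0.35, −1.11 and −0.71. The docking protein GAB1, which binds MET directly, had changes of 0.69, 0.53 and 0.28 and was not called. The median change was 0.09, 0.14 and 0.04.

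Of 20 genes for shedding and down-regulation, 18 were expressed, 1, 2 and 0 were called up and 0, 0 and 1 called down. SOCS3, a feedback inhibitor of STAT3 signalling, had rlog values of 8.21, 10.53, 9.45 and 8.56 in naive, erCriz0, erAlec0 and erLor0 cells, or changes of 2.32, 1.24 and 0.35. DUSP6, the ERK phosphatase that ERK itself induces, had changes of 0.79, 1.17 and 0.72. TIMP3, an inhibitor of the proteases that shed receptors, had changes of −0.78, −0.93 and −1.10. The shedding proteases ADAM10 and ADAM17 were not called, with changes between −0.45 and 0.33. The list's median change was 0.11, 0.17 and 0.11.

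Among 11575 expressed protein-coding genes, those with changes nearest to AXL's were RGS16, SDC2 and WIPI1, at Euclidean distances of 0.10, 0.15 and 0.15 over the 3 changes. RGS16, a regulator of G protein signalling, had changes of 1.01, 1.02 and 0.97. The nearest to MET were UST, RASAL2 and XPNPEP1, at 0.05, 0.05 and 0.07. Those nearest to MERTK were GSN, BMI1 and KLHDC7B, at 0.10, 0.13 and 0.14, to MST1R STX1A, RTL8C and RTL8A, at 0.03, 0.05 and 0.08, and to TYRO3 MAPKAPK3, DENND1A and TUFM, at 0.02, 0.04 and 0.04.

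Markers of the labelled cell type were present. EPCAM, CDH1, KRT7, KRT8, KRT18 and NKX2-1, 6 of 8 lung epithelial tumour markers, were expressed, at 8.67 to 15.17, and NAPSA and SFTPB were not. None of the 4 leukocyte markers and none of 4 fibroblast markers in the table was expressed, with PTPRC at 0 in each library, PDGFRA at no more than 2.61 and CD14 nearest to the limit, at 4.31 to 4.53. Of 4 endothelial markers, 2 were expressed, CDH5 and KDR, while PECAM1 and VWF lay near 0, at −0.13 to 0.19. CDH5 had rlog values of 4.10, 4.28, 5.78 and 5.64 in naive, erCriz0, erAlec0 and erLor0 cells, or changes of 0.18, 1.68 and 1.54. KDR, also a receptor tyrosine kinase, had 6.58, 5.43, 6.02 and 7.01, or changes of −1.15, −0.56 and 0.43. The summed linear level of this list was 115 in naive cells and 64.5, 122 and 181 in erCriz0, erAlec0 and erLor0. The depth of the libraries is unknown, since rlog values keep no read totals.

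More of the H3K27ac peaks of the 7 genes were lower than higher in each resistant line, and most of those called down were at MET. In erCriz0, erAlec0 and erLor0, 10, 28 and 21 of the 110 peaks were called down and 0, 1 and 5 up. Over all 126470 peaks, 5.94%, 9.41% and 8.82% were called down and 7.0%, 14.1% and 7.45% up. Of the 70 peaks that reached an rlog of 3.91, the log2 of 15, in some library, 3, 16 and 12 were called down and 0, 1 and 4 up. The share called among all peaks that reached this level was not computed, so the shares above are no like background for these counts. Peaks of 1 locus share their DNA and are not independent of each other.

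MET held 40 of the peaks, and the median of their changes was −0.34, −1.01 and −0.82 in erCriz0, erAlec0 and erLor0. In these lines 8, 21 and 15 of 40 were called down and 0 were called up, and 28, 38 and 36 were lower than in naive cells. The median of the other 249 peaks within 5 Mb was 0.02, 0.25 and −0.03. All MET peaks belong to a block of 55090 peaks that the table writes to at most 6 decimals, in which 6.53%, 10.8% and 10.7% were called down. For 34 of the 40 peaks MET was the only gene paired.

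The peak over the MET promoter (chr7:116671538-116675804) had rlog values of 9.21 in naive cells and of 9.58, 8.48 and 8.92 in erCriz0, erAlec0 and erLor0. It was highest in erCriz0, as MET RNA was, and lowest in erAlec0, where MET RNA was 0.11 higher than in naive cells. The largest peaks of the gene, in introns at chr7:116684207-116694581 and chr7:116705846-116713140, were 10375 and 7295 bases long. The first had rlog values of 10.18, 10.57, 9.44 and 9.75 in naive, erCriz0, erAlec0 and erLor0 cells. The second had 10.20, 10.53, 9.70 and 9.80. All 3 peaks thus had the same order, above naive cells in erCriz0 and below them in erAlec0 and erLor0, with no change reaching 1. Another strong peak, chr7:116723475-116725983, covers a further annotated start of MET and did not share this order. It had rlog values of 8.73, 8.98, 8.45 and 8.94 in naive, erCriz0, erAlec0 and erLor0 cells, so that it was higher by 0.20 in erLor0.

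Along the gene the changes were most negative in a stretch toward the 3′ side. The 26 peaks centred 1.48 to 59.2 kb from the start had a median change of −0.06, −0.91 and −0.75 in erCriz0, erAlec0 and erLor0. The 11 peaks at 60.2 to 103 kb had −0.99, −1.51 and −1.11, and all 11 were lower than in naive cells in each line. Of these 11, 5, 10 and 7 were called down. The 3 peaks at 107 to 109 kb differed from both, with changes of −1.01 to −0.25 for erCriz0, −0.09 to 0.40 for erAlec0 and 0.29 to 0.64 for erLor0. The limits of these stretches were set with the values in view, and the stretches are a description.

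Only 4 of the 110 peaks were called down in all 3 resistant lines, all of them in MET between 60 and 98 kb from the start. Over all peaks this share was 1.76%. The one that reached an rlog of 3.91, at chr7:116769880-116770416 and overlapping a MET exon, had rlog values of 4.19 in naive cells and of 3.17, 2.31 and 2.66 in erCriz0, erAlec0 and erLor0. It reached that level through the naive library alone, so reaching it lends no support to its lower values elsewhere. Its changes were −1.03, −1.88 and −1.53, and its erAlec0 change was the lowest of all 110 peaks in that line. The peak beside it, at chr7:116769148-116769639, had changes of −1.60, −1.60 and −1.65 but stayed under an rlog of 3.91 in each library. The central 300 bases of the first, chr7:116769998-116770297 on the plus strand of hg38, are shown as the sequence of 1 of these 4 peaks.
MET peak_123556: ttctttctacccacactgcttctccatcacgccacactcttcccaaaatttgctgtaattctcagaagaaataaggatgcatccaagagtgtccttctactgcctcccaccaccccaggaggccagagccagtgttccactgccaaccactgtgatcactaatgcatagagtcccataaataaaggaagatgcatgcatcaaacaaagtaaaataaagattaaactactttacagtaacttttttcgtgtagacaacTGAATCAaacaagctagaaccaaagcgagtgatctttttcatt
It had 41.3% G and C and 1 AP-1 match, in capitals, and none of the other motifs. Of the central 300 bases of 95649 peaks, 9.85% held an AP-1 match.

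MET peaks under 1 kb and those of 1 to 5 kb were called down in erAlec0 and erLor0 at similar rates. Of the 30 MET peaks under 1 kb, 8, 17 and 12 were called down in erCriz0, erAlec0 and erLor0, beside 6.68%, 8.91% and 8.72% of all peaks under 1 kb. Of the 8 MET peaks of 1 to 5 kb, 0, 4 and 3 were called down, beside 4.70%, 10.2% and 9.28% of all peaks of that length. Of the 2 MET peaks of 5 kb or more, 0 were called down in each line, beside 2.03%, 12.3% and 7.81% of all such peaks. Among the 23 MET peaks that reached an rlog of 3.91, 2, 10 and 8 were called down and the median change was −0.08, −0.88 and −0.77. The erCriz0 median thus moved close to 0 when weak peaks were left out, and those of erAlec0 and erLor0 did not. No share over all peaks of that level was computed to set beside the counts of these 23.

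**Figure D3:**
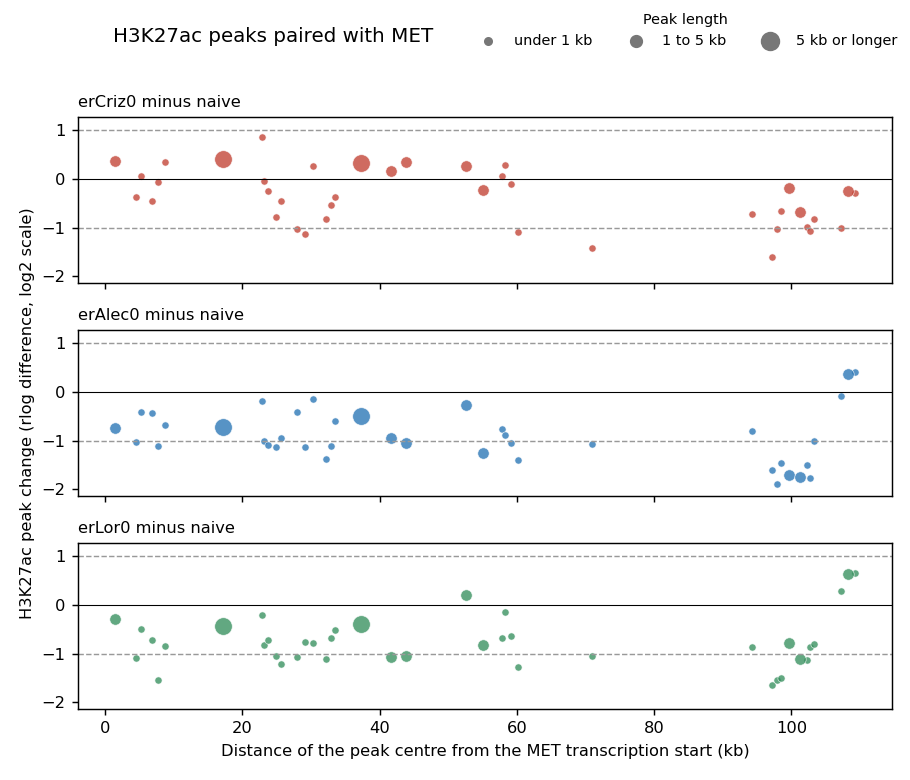
Change of each of the 40 H3K27ac peaks paired with MET (rlog difference from naive cells, log2 scale) against the distance of the peak centre from the start of the gene in kb, 1 panel per resistant line, with larger points for longer peaks and dashed lines at −1 and 1. Points near 100 kb lie low in each panel, and the points from 107 to 109 kb lie above their neighbours in erAlec0 and erLor0.

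MERTK held 41 peaks, and of the 3 peaks over a main start, those of MERTK, MET and MST1R, that of MERTK was the one called up. The peak at chr2:111897349-111899968 had rlog values of 7.71 in naive cells and of 8.30, 8.13 and 8.91 in erCriz0, erAlec0 and erLor0. All 3 resistant libraries were above the naive one, with changes of 0.58, 0.41 and 1.20. The intronic peak at chr2:111904401-111906699 had rlog values of 5.48, 5.22, 6.39 and 6.71, so that it was higher in erAlec0 and erLor0 only, by 0.92 and 1.24. All 8 peaks from −15.6 to 8.4 kb of the start were higher in erLor0, with a median of 0.75, beside 5 of 8 in erAlec0 and 4 of 8 in erCriz0. Each of the 8 was also paired with other genes. The peak at chr2:111883436-111885327, with a change of 0.15 in erLor0, covers the start of the neighbouring gene ANAPC1.

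Further into MERTK and past its end the lines differed. The 12 peaks at 47.8 to 85.4 kb had medians of 0.11, −0.52 and −0.21 in erCriz0, erAlec0 and erLor0, and the lowest in erAlec0 were at chr2:111966905-111967228, −1.26, and chr2:111975409-111976455, −1.19. The next 17 peaks, from 106 kb on, had medians of −0.52, −0.49 and −0.01, with all 17 lower in erAlec0. At and past the 3′ end, 4 peaks at 135 to 149 kb were lower in erCriz0 and higher in erAlec0 and erLor0, with medians of −0.74, 0.31 and 0.85. The first of these reached over the end of the gene, and the others lay downstream, 8642, 9184 and 17975 bases past it. The longest of the 4, chr2:112029240-112037787, had rlog values of 9.77 in naive cells and of 8.87, 10.12 and 10.52 in erCriz0, erAlec0 and erLor0. The next, chr2:112038746-112045166, had 7.49, 6.64, 8.46 and 8.95, or changes of −0.85, 0.97 and 1.46. These stretches, too, were set with the values in view. The median of other peaks within 5 Mb of MERTK was 0.00 in each line. All 4 peaks at 135 to 149 kb were also paired with other genes.

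**Figure D4:**
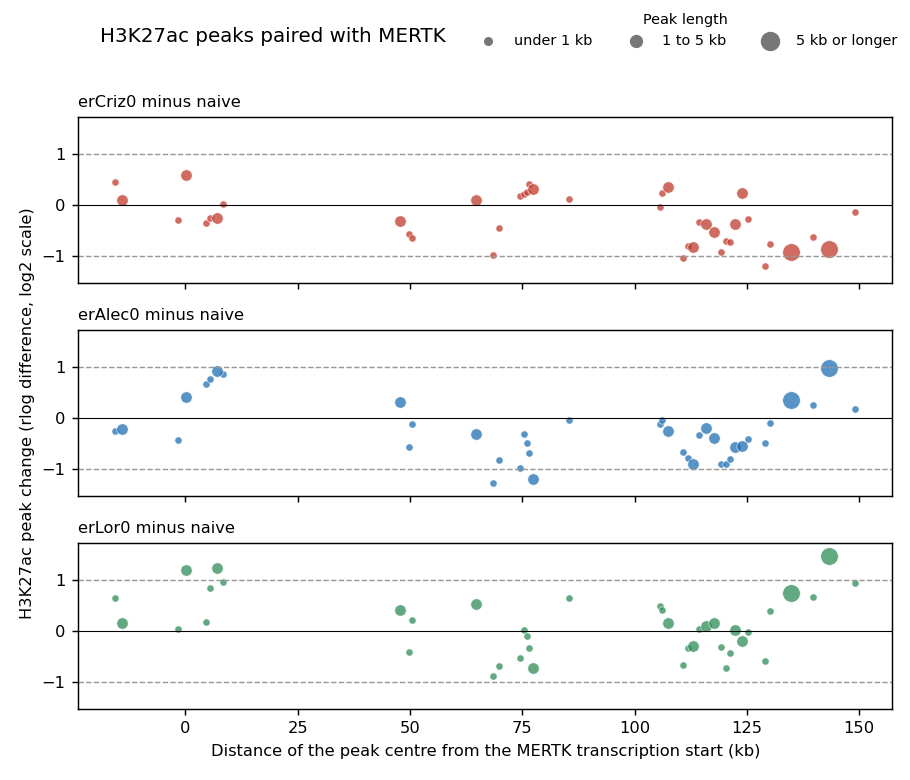
Change of each of the 41 H3K27ac peaks paired with MERTK (rlog difference from naive cells, log2 scale) against the distance of the peak centre from the start of the gene in kb, drawn as for MET. The 4 points from 135 to 149 kb lie below 0 in erCriz0 and above 0 in erAlec0 and erLor0, and the points at the start lie highest in erLor0.

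At AXL the peaks did not follow the RNA. None of its 5 peaks covered the main start, and the peak over the second promoter window, chr19:41225913-41226869, had rlog values of 5.87 in naive cells and of 5.92, 5.26 and 6.01 in erCriz0, erAlec0 and erLor0, or changes of 0.06, −0.61 and 0.14. The intronic peak before it, chr19:41224200-41225828, had 6.72, 6.13, 5.48 and 5.59 and was called down in erAlec0, −1.24, and erLor0, −1.13. Less the median of other peaks within 5 Mb, which was −0.30 and 0.01 in these lines, it was at −0.93 and no longer called in erAlec0 and at −1.14 in erLor0. The strongest, chr19:41261984-41267712, at 10.32 in naive cells, covers the start of the neighbouring gene HNRNPUL1 and had changes of 0.17, 0.10 and 0.39. No AXL peak was called up in any line, while AXL RNA was 1.92- to 2.08-fold higher.

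At TYRO3 most peaks were higher than in naive cells, while its RNA changes were −0.35, −0.02 and 0.11. The peak at chr15:41559218-41560240, which begins 6 bases after the main start, had rlog values of 4.62 in naive cells and of 5.31, 5.98 and 5.75 in erCriz0, erAlec0 and erLor0. It was called up in erAlec0 and erLor0, with changes of 0.69, 1.35 and 1.12. It was the only peak of the 110 called up in erAlec0. Of 7 TYRO3 peaks, 6, 6 and 5 were higher in erCriz0, erAlec0 and erLor0. These include the peak at chr15:41543521-41545067, which covers the start of the neighbouring gene RPAP1. Of the 7 peaks, 6 were also paired with other genes. A weak peak downstream, chr15:41585138-41585439, with an rlog of 2.64 in naive cells, had changes of 0.03, 0.97 and 1.04. Other peaks within 5 Mb of TYRO3 had medians of 0.02, 0.26 and 0.19. Less these medians, the erLor0 changes of both peaks were no longer calls, at 0.93 and 0.85, and the erAlec0 change of the first was 1.09.

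For MST1R the promoter peak and the RNA had opposite signs in each line. The peak, chr3:49897096-49907855, was 10760 bases long and had rlog values of 10.85 in naive cells and of 11.17, 10.14 and 10.50 in erCriz0, erAlec0 and erLor0. Its changes were 0.31, −0.72 and −0.35, beside RNA changes of −0.33, 0.66 and 0.37. All 5 MST1R peaks were lower in erAlec0 and erLor0, and those at chr3:49895666-49896054 and chr3:49896583-49896960 were called down in both, between −1.15 and −1.05. Each of these peaks was also paired with other genes.

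A peak covering the main start and the RNA often had different signs across the genome as well. Of 10586 expressed genes with such a peak, the share with the same sign of change in both was 52.6%, 51.0% and 50.1% in erCriz0, erAlec0 and erLor0. Among those with a called RNA the share was 253 of 370, 199 of 409 and 117 of 168. RNA and peak values come from separate libraries. A period without drug is stated for the RNA cells only, so RNA and peaks may differ in drug state at each gene compared here. This was not tested.

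**Figure D5:**
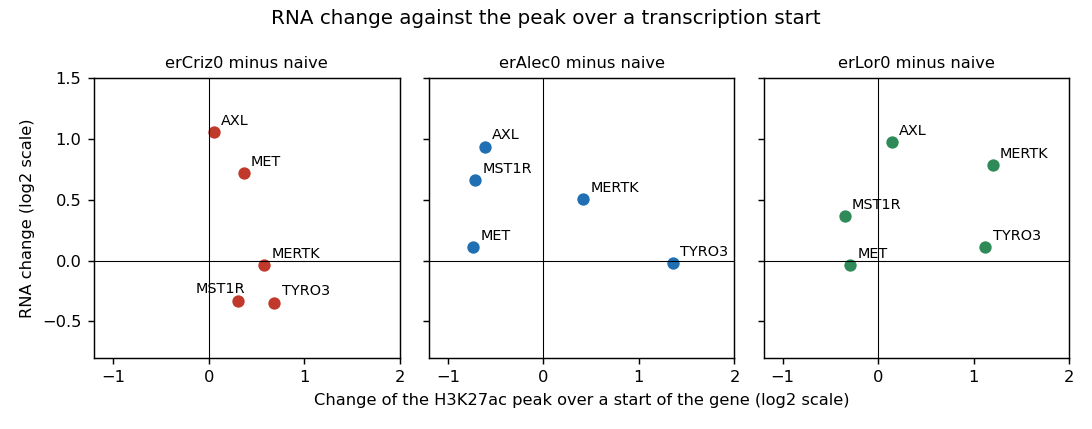
RNA change against the change of the H3K27ac peak over a start of the gene (both rlog differences from naive cells, log2 scale) for the 5 expressed members, 1 panel per resistant line. The peak is that over the main start for MET, MST1R and MERTK, that over a downstream start for AXL, and that over a start just downstream of the main one for TYRO3, and MST1R lies in a quadrant of opposite signs in each panel.

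The genes of both ligands had peaks without expressed RNA. GAS6 had 9, none over its main start, and the 2 called down, at chr13:113833500-113833885 and chr13:113835121-113835766, lay over exons. The first had rlog values of 4.74 in naive cells and of 4.29, 3.71 and 3.50 in erCriz0, erAlec0 and erLor0, and the second had changes of −0.06, −1.01 and −0.59. Less the median of other peaks within 5 Mb, their erAlec0 changes were −0.91 and −0.89 and no longer calls, and the first stayed called in erLor0, at −1.17. HGF had 3 peaks, all past its 3′ end and about 85 kb from its start, also paired with another gene. The strongest, chr7:81685079-81685507, had rlog values of 4.42, 4.28, 3.75 and 3.17 in naive, erCriz0, erAlec0 and erLor0 cells and was called down in erLor0, −1.25, as was chr7:81684271-81684528, −1.27. The median of other peaks within 5 Mb of HGF was −0.08, −0.21 and −0.45, and less this median neither peak was called, at −0.80 and −0.82 in erLor0.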

How the data were processed

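For naive NCI-H3122, erCriz0, erAlec0 and erLor0 cells, 1 RNA-seq and 1 H3K27ac ChIP-seq library each was used. The other 4 of 8 samples in the series were not analysed here. The authors deposited 1 table in which 295240 rows pair peaks with genes within 20 kb. Both carry log2-scale values from the rlog function of DESeq2, deposited without read counts.

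RNA reads had been aligned to hg38 with HISAT2 and counted with HTSeq-count. ChIP reads had been aligned with BWA, filtered for duplicates and a mapping quality of 25, and peaks called with MACS2 at a q-value of 0.05, merged over samples, freed of blacklisted regions and counted with featureCounts. Tool versions and subtraction of input were not given in the sources used here. Rlog shrinks the differences of features with few reads, and read totals cannot be recovered from it, so depth and counting error are unknown. Columns with the authors' correlation per row, its raw p-value and the adjusted one were deposited too and were not used. 0 columns of per-sample values were left unmapped.

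Gene symbols were matched for 43669 of 43869 identifiers in GENCODE release 44, whose build has the gene starts of the table for 39762. Differences from naive cells were computed with Python 3.11.15, numpy 2.4.6 and pandas 2.3.3, and called at a limit of 1, which the study's methods state for genes and which was applied here to peaks as well. The calling step was tested on simulated data with little noise and 200 planted changes above the limit, of which 200 were recovered with 0 false calls. This checks the calculation only and says nothing about the spread of the real libraries. The 7 genes and all gene lists were chosen with earlier results of these data known. Named were the 7 genes, peaks called in any line (by extremes where over 6) and promoter peaks, at most 4 called genes of each list and the 3 genes nearest to each expressed member. PROS1, MST1, SPINT1, ST14, GAB1, ADAM10, ADAM17, CAV1 and the weak peaks beside named ones were added after their values were seen. Alternatives were other limits, centring, quantile normalization, minimum rlog, distance, unshared peaks and subtraction of neighbours within 2 or 5 Mb. With 1 library per line no p-value was computed.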

Additional observations from a re-analysis of the deposited data

Results flagged for a closer look

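At and past the 3′ end of MERTK, 3 neighbouring peaks were at least 1.5-fold away from naive cells in opposite directions in different resistant lines. The peak at chr2:112029240-112037787 had changes of −0.90 in erCriz0, 0.35 in erAlec0 and 0.75 in erLor0. The short peak at chr2:112038204-112038563 had −0.62, 0.26 and 0.66, and the peak at chr2:112038746-112045166 had −0.85, 0.97 and 1.46. MERTK RNA had changes of −0.03, 0.51 and 0.79 in the same lines. The short peak and the one after it lay downstream of the gene, 8642 and 9184 bases past its end. All 3 peaks were also paired with other genes, whose RNA is not given here. The difference between lines was not tested, since each rests on 1 library.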

How the results depend on the processing

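Values are given in the order erCriz0, erAlec0 and erLor0, and the cause of a difference was not tested. Shares over all genes and peaks were computed for the main setting only. The counts below thus have no like background and are no result about the members or lists. No paired analysis was possible because each line has 1 library and the result comes from no test, and no library could be left out for the same reason. At a limit of log2(1.5), the members called up by RNA were 2, 2 and 2, the genes of the role lists up 10, 11 and 7 and down 4, 4 and 2, the receptor tyrosine kinases up 6, 8 and 8 and down 7 and 2 (erCriz0 and erAlec0), and the members' peaks up 4, 10 and 15 and down 33, 54 and 47. At a limit of 2, no member RNA and none of its peaks was called (0 in each line), and of the role lists and the receptor tyrosine kinases 1 gene each stayed up in erCriz0 and 0 in the others, with 0 down. Centring on expressed genes left 1 receptor tyrosine kinase down in erCriz0, and centring on all peaks left 5 member peaks down there. The library medians of peaks had been −0.08, 0.02 and −0.10 from naive cells, those of RNA −0.05, −0.03 and −0.02. Quantile normalization gave 1 member peak up and 6 down in erCriz0. Less the median of neighbours within 5 Mb, 1 member (AXL) was up in erAlec0, at 1.01, 0 role-list genes were down in erCriz0 and 3 member peaks were up in erLor0, and within 2 Mb 3 were up in erAlec0 and 3 in erLor0. Peaks paired with no other gene gave 0 up in erAlec0, 1 up in erLor0 and 13 down in erLor0. Peaks that reached an rlog of log2(15) gave 3, 16 and 12 down. Of the counts under these settings, 103 stayed within 1.5 times the main count and 53 did not. Of the single changes and medians, 173 stayed within 0.25 and on the same side of the limit and 22 did not. No value of 1 or more in size changed sign, but few were that large, and smaller ones did. Examples are MET RNA in erAlec0 and MERTK RNA in erCriz0, under 2 of 3 alternatives each. The GAS6 peak median in erCriz0 did so under 3 of 6. AXL RNA stayed between 0.93 and 1.23 in all 3 lines, while MET RNA in erCriz0 was 0.31 to 0.78. The median change of AXL peaks was 0.14 in erLor0 over peaks that reached log2(15), against −0.67 over all 5.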
